A study of Mus musculus with 8 samples.

Results

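The mitochondrial sheath formation genes described here are Armc12, Spata19, Tbc1d21, Smcp, Gk2, Gykl1, Vdac2, Vdac3 and Slc25a31. They were listed by name, for what their proteins do in the sheath of the sperm midpiece. This list and all other lists of genes were made with earlier results of these data known. Counts from these lists are therefore a description. The sheath genes make up 9 of the 19906 genes in the table. Testis RNA was sequenced from 4 Tmem232-/- and 4 Tmem232+/+ mice aged 2 months, with 1 library per mouse, and each group is named here by its label. The study made the Tmem232-/- line by cutting a fragment out of the gene with CRISPR-Cas9, so that every cell of the mouse carries the deletion, and Tmem232+/+ mice are its wild type. Levels are given as counts per 1000000 counts of the scaled library (CPM), and fold changes are of Tmem232-/- over Tmem232+/+.

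The midpiece of a sperm tail holds mitochondria that line up on the outer dense fibers during late spermiogenesis, attach to each other and coil around the axoneme as the mitochondrial sheath. Outer membrane channels, proteins of the mitochondrial capsule and proteins that hold neighbouring mitochondria together take part in this, and mice without one of them can have a sheath with gaps or loosened mitochondria. Germ cells also use their own forms of some enzymes and carriers of the mitochondrion, which are made from genes other than those used by somatic cells.

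Total counts lay between 15428421 and 16350871 per library, and 15787 genes passed the filter of edgeR on low counts, all 9 sheath genes among them. Tmem232 itself did not verify the labels, since the label Tmem232-/- went with 131 ± 11.8 CPM (SD, n = 4) and the label Tmem232+/+ with 109 ± 2.08 CPM. Its log2 fold change was 0.27 (adjusted p = 0.0335 by edgeR). The reads of the retained exons cannot be told apart from the others in a count per gene. Replicate 3 labelled Tmem232+/+ stood apart, because the chi-square of its counts per degree of freedom against the other libraries of its group was 14.7 to 23.5, and between those others it was 3.82 to 6.67. The libraries labelled Tmem232-/- were not alike either, at 3.65 between replicates 2 and 3, 8.33 between 1 and 4, and 11.8 to 13.8 between these pairs. Fold changes without replicate 3 of Tmem232+/+ are given for each gene, and the range with every library left out in turn is in the plot of fold changes.

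Armc12, Spata19, Tbc1d21 and Smcp were 2.31 to 2.90 times as high in the libraries labelled Tmem232-/-, and Gykl1 was 1.29 times as high. No difference passed the test for Gk2, Vdac2, Vdac3 and Slc25a31. Thus 5 of the 9 genes rose at an adjusted p under 0.05, beside 10.3% of all tested genes. Those that rose by 2-fold or more at that threshold numbered 4, beside 5.23% of tested genes. For 5 of the 9, every library labelled Tmem232-/- lay above every other library, which was so for 11.8% of tested genes. None of the 9 fell by edgeR, where 1.46% of tested genes fell, so this 0 is no result about these genes. The number lower was also 0 at an unadjusted p under 0.05, by DESeq2 and by limma-voom. The background of genes that fell rests on single libraries. Of tested genes, 37 fell without replicate 1 of Tmem232+/+ and 356 without replicate 4 of Tmem232-/-, against 230 with all 8. None of the 9 lay below every library labelled Tmem232+/+ in all libraries labelled Tmem232-/-. This was so for 6.88% of tested genes, so that 0 is no result about these genes either. The median log2 fold change of all tested genes was -0.05.

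**Figure D1:**
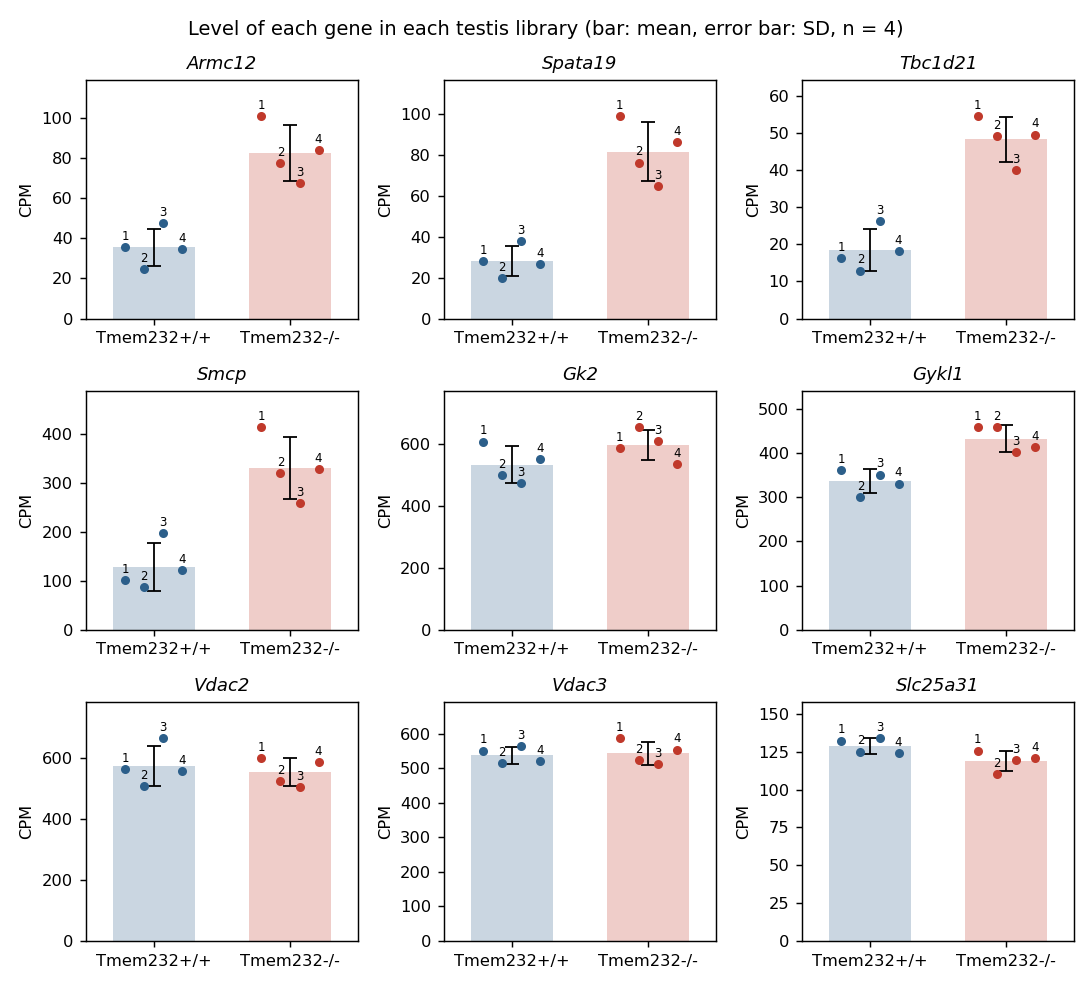
CPM of each gene (vertical axis, from 0) in the 4 libraries labelled Tmem232+/+ (blue) and the 4 labelled Tmem232-/- (red), with replicate numbers beside the points, the mean as a bar and the SD as an error bar. The groups do not overlap for Armc12, Spata19, Tbc1d21, Smcp and Gykl1, and they overlap for the other 4 genes.

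The stretches before 3 of the genes that rose and before 1 that did not are shown because they differ in CpG dinucleotides, which are written in capitals. Each window is from RefSeq on build GRCm38.p6 and runs 5′ to 3′ on the strand of the gene, from 250 bases before the start to 50 after it. Smcp at chr3:92589024-92589323 (minus strand) held 0 CpG, Tbc1d21 at chr9:58370406-58370705 (minus strand) held 1, Spata19 at chr9:27396557-27396856 (plus strand) held 2, and Slc25a31 at chr3:40708621-40708920 (plus strand) held 22.
Smcp: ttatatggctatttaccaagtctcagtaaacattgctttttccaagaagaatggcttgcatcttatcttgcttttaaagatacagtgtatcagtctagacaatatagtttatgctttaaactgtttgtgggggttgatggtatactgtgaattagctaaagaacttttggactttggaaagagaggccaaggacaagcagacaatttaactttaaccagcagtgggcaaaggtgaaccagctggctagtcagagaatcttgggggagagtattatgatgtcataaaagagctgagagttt
Tbc1d21: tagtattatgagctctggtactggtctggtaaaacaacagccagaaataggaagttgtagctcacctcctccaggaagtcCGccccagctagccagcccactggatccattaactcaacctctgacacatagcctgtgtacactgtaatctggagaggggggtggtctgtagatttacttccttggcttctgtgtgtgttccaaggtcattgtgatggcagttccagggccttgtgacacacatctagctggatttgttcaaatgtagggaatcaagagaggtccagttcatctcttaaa
Spata19: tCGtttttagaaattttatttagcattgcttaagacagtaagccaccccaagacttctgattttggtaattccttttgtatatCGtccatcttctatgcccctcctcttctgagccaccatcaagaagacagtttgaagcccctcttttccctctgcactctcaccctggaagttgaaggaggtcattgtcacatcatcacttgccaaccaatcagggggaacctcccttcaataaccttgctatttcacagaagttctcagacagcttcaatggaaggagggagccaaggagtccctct
Slc25a31: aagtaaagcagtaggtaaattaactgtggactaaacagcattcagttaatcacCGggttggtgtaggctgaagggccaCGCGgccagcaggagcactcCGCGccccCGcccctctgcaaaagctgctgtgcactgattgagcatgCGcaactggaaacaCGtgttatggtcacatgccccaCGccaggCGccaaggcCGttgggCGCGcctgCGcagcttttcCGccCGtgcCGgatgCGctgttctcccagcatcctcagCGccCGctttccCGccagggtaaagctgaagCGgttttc

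Windows were found for 5 of the 9 genes. The fifth, Gk2, held 5 CpG, a second start of Spata19 held 4, and the median over all 32851 windows was 7. Armc12, Gykl1, Vdac2 and Vdac3 had no entry in the set of windows used, though RefSeq gives positions for these genes. Of the 5 genes that rose, 3 are therefore compared here. Among tested genes whose window with the fewest CpG held 0 to 2, 33.5% of 1241 rose at an adjusted p under 0.05, against 16.01% of 2686 genes with 3 to 9 and 5.06% of 8595 genes with 10 or more. These shares are a description, chosen after the values were seen, and Smcp, Tbc1d21 and Spata19 fell in the first class, Gk2 in the second and Slc25a31 in the last. The cAMP response element TGACGTCA was in 0 of the 6 windows of the sheath genes on either strand and in 1.79% of all windows. Its shorter form TGACG, which the longer one contains, was in 0 of 6 and in 20.8% of all, and TATAAA was in 0 of 6 and 13.6%. CCAAT was in both windows of Spata19 and in none of the other 4 windows, against 37.4% of all. With only 6 windows, both of Spata19 among them, these motif counts are no result about the sheath genes.

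Armc12 encodes an armadillo repeat protein on the surface of mitochondria that takes part in holding them together as they coil. The gene lies at chr17:28530806-28539110 on the plus strand of GRCm38 and has 6 exons. Its level in replicates 1 to 4 was 101, 77.6, 67.5 and 83.9 CPM under the label Tmem232-/- and 35.6, 24.8, 47.4 and 34.7 CPM under Tmem232+/+. The lowest of the first set was above the highest of the second. The log2 fold change was 1.21 (SE 0.17, 95% interval 0.83 to 1.59, adjusted p = 0.00059 by edgeR), and without replicate 3 of Tmem232+/+ it was 1.41.

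Spata19, a protein of spermatid mitochondria that is needed for their organization in the midpiece, lies at chr9:27396800-27401785 on the plus strand with 7 exons. It was measured at 99.0, 76.3, 65.0 and 86.1 CPM in replicates 1 to 4 labelled Tmem232-/- and at 28.1, 19.8, 38.0 and 26.7 CPM in those labelled Tmem232+/+. All of the former were above all of the latter, and this gene had the largest fold change of the 9. It came to a log2 value of 1.54 (SE 0.18, 95% interval 1.14 to 1.93, adjusted p = 0.000145 by edgeR) and to 1.74 without replicate 3 of Tmem232+/+.

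Tbc1d21 encodes a protein with the domain of GTPase-activating proteins for Rab GTPases and is made in the testis. It lies at chr9:58359704-58370455 on the minus strand with 11 exons. Replicates 1 to 4 held 54.4, 49.1, 40.0 and 49.5 CPM under Tmem232-/- and 16.3, 12.9, 26.3 and 18.2 CPM under Tmem232+/+. The sets did not overlap. The log2 fold change was 1.39 (SE 0.18, 95% interval 0.99 to 1.79, adjusted p = 0.000306 by edgeR), or 1.64 without replicate 3 of Tmem232+/+.

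Smcp is the cysteine-rich protein of the capsule, the keratin-like layer around sperm mitochondria. Its gene, at chr3:92583867-92588997 on the minus strand, has 2 exons. Smcp stood at 414, 321, 259.9 and 329.6 CPM in replicates 1 to 4 of Tmem232-/- and at 102, 87.4, 198 and 123 CPM in those of Tmem232+/+. Replicate 3 of Tmem232+/+ was 90.0% above the mean of the other 3 libraries of its label, and it still lay below every Tmem232-/- value. The log2 fold change of 1.38 (SE 0.23, 95% interval 0.87 to 1.88, adjusted p = 0.00159 by edgeR) was 1.70 without that library.

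These 4 genes ranked the libraries in much the same way. Within Tmem232-/-, replicate 1 was the highest for each of them, followed by replicates 4, 2 and 3. Within Tmem232+/+, replicate 3 was the highest and replicate 2 the lowest for each, and replicates 1 and 4 changed places between Armc12 and Spata19 on one side and Tbc1d21 and Smcp on the other. Replicate 3 of Tmem232+/+ exceeded the mean of the other 3 by 49.3% for Armc12, 52.8% for Spata19 and 66.3% for Tbc1d21. The fold changes of all 4 genes were smaller with this library than without it.

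The summed CPM of 10 markers of elongating spermatids, among them Prm1, Tnp1 and Akap4, moved with these genes. It was 1641, 1341, 977 and 1621 in replicates 1 to 4 of Tmem232-/- and 289, 216, 397 and 317 in those of Tmem232+/+. This sum placed the libraries of Tmem232-/- in the order given for the 4 genes, and those of Tmem232+/+ in the order of Tbc1d21 and Smcp. All 10 markers rose, with a median log2 fold change of 2.80, beside 10.3% of tested genes that rose and 1.46% that fell. Of 8 markers of round spermatids 5 rose, and their sum was 2305 to 2670 CPM under Tmem232-/- and 1744 to 2052 under Tmem232+/+. Of 8 markers of spermatogonia 3 fell, and their sum was 193 to 211 against 233 to 261 CPM. Of 5 markers of peritubular cells 2 fell, and their sum was 197 to 236 against 250.2 to 296 CPM. The sums of the other 6 marker lists (spermatocytes, Sertoli cells, Leydig cells, macrophages, endothelial cells and red blood cells) overlapped between the labels, 1 spermatocyte marker fell, and none of the listed markers was at 0 in all libraries. The part of these markers in the result was not tested. In RNA of a whole testis, more or fewer cells of a type and more or less RNA per cell cannot be told apart.

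**Figure D2:**
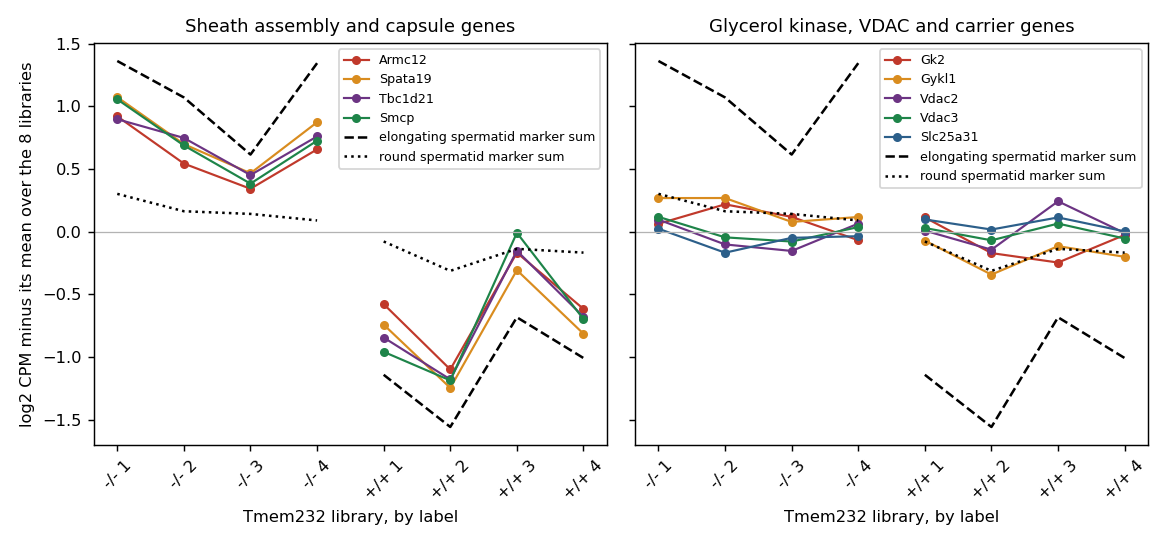
log2 CPM minus its mean over the 8 libraries (vertical axis) for each library (horizontal axis), with the 4 sheath assembly and capsule genes on the left, the other 5 genes on the right, and the summed markers of elongating (dashed) and round (dotted) spermatids in both, where lines only guide the eye. On the left the genes follow each other in both groups and lie lower in replicate 2 of Tmem232+/+ than in replicate 3, and on the right they stay near 0.

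Gk2 and Gykl1 are glycerol kinase-like genes of germ cells, each with 1 exon, and mice without either have a disordered sheath. Gykl1 lies at chr18:52693690-52695550 on the plus strand. It reached 458, 458, 402 and 413 CPM in replicates 1 to 4 of Tmem232-/- and 362, 300.1, 351 and 331 CPM in those of Tmem232+/+. The sets did not overlap, though the distance was small. Its log2 fold change was 0.36 (SE 0.08, 95% interval 0.19 to 0.54, adjusted p = 0.00965 by edgeR), and 0.42 without replicate 3 of Tmem232+/+.

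Gk2 lies at chr5:97455142-97457021 on the minus strand. In replicates 1 to 4 it had 588, 654, 610.5 and 536 CPM under Tmem232-/- and 608, 499.6, 474 and 552 CPM under Tmem232+/+. Replicate 1 of Tmem232+/+ was above replicates 1 and 4 of Tmem232-/-, so the sets overlapped. The log2 fold change of 0.16 (SE 0.09, 95% interval -0.04 to 0.36) did not pass the test (adjusted p = 0.303 by edgeR), and it was 0.14 without replicate 3 of Tmem232+/+. The interval leaves room for a rise of 1.29-fold.

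Vdac2 and Vdac3 encode voltage-dependent anion channels, the pores through which metabolites cross the outer mitochondrial membrane, and male mice without Vdac3 have sperm of low motility. Vdac2, at chr14:21825238-21845879 on the plus strand with 10 exons, was at 599.5, 523, 504 and 586 CPM in replicates 1 to 4 of Tmem232-/- and at 564, 508, 663 and 557 CPM in those of Tmem232+/+. Replicate 3 of Tmem232+/+ was the highest of the 8, and the sets overlapped. With a log2 fold change of -0.05 (SE 0.09, 95% interval -0.25 to 0.15, adjusted p = 0.770 by edgeR), Vdac2 gave 0.06 without that library, so that its sign rested on it.

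Vdac3, at chr8:22577075-22593813 on the minus strand with 9 exons, was at 586, 523, 511 and 554 CPM in replicates 1 to 4 of Tmem232-/- and at 551, 515, 565 and 519.8 CPM in those of Tmem232+/+. The sets lay over each other. The log2 fold change was 0.02 (SE 0.07, 95% interval -0.13 to 0.17, adjusted p = 0.905 by edgeR), and 0.07 without replicate 3 of Tmem232+/+. Its counts are uncertain, because 47.5% of the 50-base words of its transcript also occur in transcripts of other genes, chiefly the pseudogene Vdac3-ps1. For Vdac2 this share was 10.3%, for Gk2 1.47%, and for the other 6 sheath genes it was 0.

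Slc25a31 is the ADP/ATP carrier of the inner mitochondrial membrane in male germ cells, which exchanges ATP for ADP. It lies at chr3:40708855-40726096 on the plus strand and has 6 exons. Its level was 126, 110.1, 119.5 and 121 CPM in replicates 1 to 4 of Tmem232-/- and 132, 125, 134 and 124 CPM in those of Tmem232+/+. Only replicate 1 of Tmem232-/- entered the range of the other label. The log2 fold change of -0.11 (SE 0.06, 95% interval -0.26 to 0.03) did not pass the test (adjusted p = 0.304 by edgeR), and it was -0.06 without replicate 3 of Tmem232+/+.

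**Figure D3:**
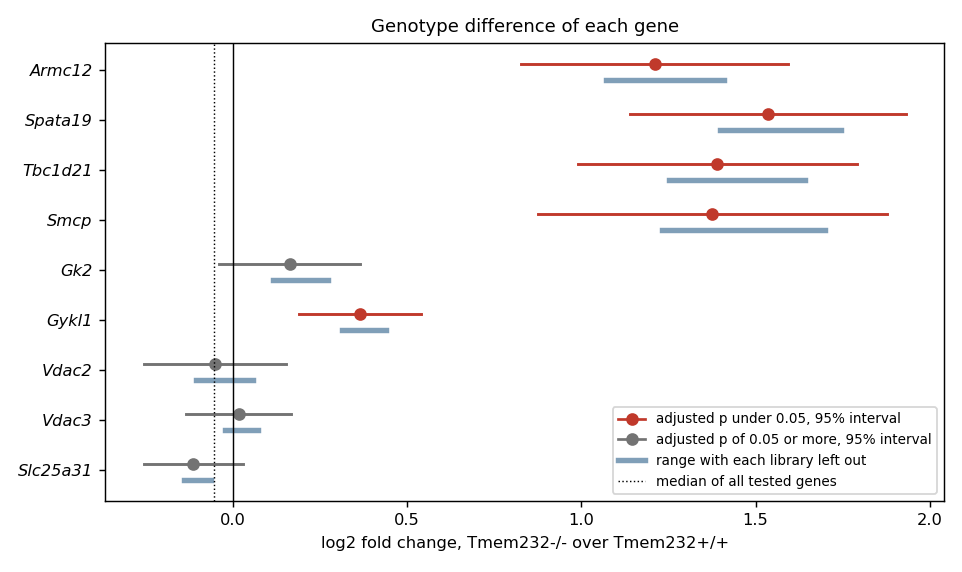
log2 fold change of Tmem232-/- over Tmem232+/+ (horizontal axis) for each gene with its 95% interval, red at an adjusted p under 0.05 and grey otherwise, the range with each library left out in turn as a thick line below it, and the median of all tested genes as a dotted line. Armc12, Spata19, Tbc1d21 and Smcp lie between 1.21 and 1.54, Gykl1 at 0.36, and the other 4 between -0.11 and 0.16.

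The genes were also compared with each other inside each library, as the ratio of their CPM, which does not depend on how libraries are scaled. Of the 36 pairs of sheath genes, 25 had ratios that did not overlap between the labels, beside 21.8% of all pairs of tested genes with a mean of at least 1 CPM. All 20 pairs of one of Armc12, Spata19, Tbc1d21 and Smcp with one of the other 5 genes were among them. So were Gykl1 with Vdac2, Vdac3 and Slc25a31, whose ratios to Gykl1 were lower under Tmem232-/-, and Slc25a31 with Vdac3. The pairs share genes and libraries, and these ratios were chosen after the values were seen.

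Among Armc12, Spata19, Tbc1d21 and Smcp, 1 of the 6 pairs did not overlap, beside 21.8% of all pairs of tested genes, so this count is no result about these genes. The pair is described because it did not overlap. The ratio of Spata19 to Armc12 in CPM was 0.982, 0.984, 0.963 and 1.03 in replicates 1 to 4 of Tmem232-/- and 0.788, 0.798, 0.802 and 0.770 in those of Tmem232+/+. The ratio was higher in every Tmem232-/- library, and its SD was 0.0269 under that label and 0.0143 under the other. The difference of the log2 ratio was 0.32, given with no test because the pair was picked for it. The ratio of Smcp to Tbc1d21 had a mean of 6.83 ± 0.526 (SD, n = 4) under Tmem232-/- and 6.84 ± 0.513 under Tmem232+/+, with values that overlapped.

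Per length, as FPKM, the deposited levels of these genes spanned a wide range. The label Tmem232+/+ had a mean FPKM of 436 ± 18.2 (SD, n = 4) for Vdac3, 389 ± 45.6 for Vdac2, 322 ± 29.5 for Gk2, 195 ± 13.1 for Gykl1 and 181 ± 70.6 for Smcp. Slc25a31 followed at 67.2 ± 2.42, Spata19 at 54.7 ± 14.5, Armc12 at 38.7 ± 10.1 and Tbc1d21 at 17.9 ± 5.57. By FPKM, Vdac3, whose counts are uncertain, ranked 133 of 19906 genes and Tbc1d21 ranked 5348. Neighbours in this order overlapped in range, except Gk2 with Gykl1, Smcp with Slc25a31 and Armc12 with Tbc1d21. Under the label Tmem232-/- the mean of Smcp was 456 ± 83.1 FPKM, and its range took in that of Vdac3 at 430.5 ± 25.3, while Spata19 at 154 ± 26.1 and Armc12 at 87.5 ± 14.1 stood above Slc25a31 at 60.7 ± 3.31. A mitochondrial component term of the gene ontology was listed for 7 of the 8 sheath genes that have a component term, Tbc1d21 being the exception, and for 9.64% of the 19000 genes with such a term.

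The shares of Vdac2, Vdac3, Slc25a31, Gk2 and Gykl1 within their families were taken from FPKM. Vdac3 made up 52.1 ± 0.781% (SD, n = 4) of the summed Vdac1, Vdac2 and Vdac3 under Tmem232-/- and 50.9 ± 1.68% under Tmem232+/+. Vdac2 made up 44.4 ± 0.808% and 45.3 ± 1.94%, and Vdac1, the main form of most somatic tissues, 2.95% to 4.16% over the 8 libraries. The VDAC shares are uncertain, because 47.5% of the 50-base words of Vdac3 and 10.3% of those of Vdac2 also occur in transcripts of other genes. Slc25a31 made up 38.8 ± 2.69% and 37.8 ± 2.20% of the 3 ADP/ATP carriers, beside 38.0% to 45.4% for Slc25a5 and 17.3% to 23.2% for Slc25a4. The shares of Vdac1, Vdac2, Vdac3, Slc25a5 and Slc25a31 overlapped between the labels. That of Slc25a4 did not, at 17.3% to 20.004% under Tmem232-/- and 21.1% to 23.2% under Tmem232+/+, and it was looked at after its values were seen and not tested.

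The glycerol kinase sum was taken over Gk2, Gykl1 and Gk, the form of somatic cells, which was at 0.0605% to 0.159% of it. Gk5 was not in this sum, and with it added, it made up 0.179% to 0.388%. The share of Gk2 was 57.1, 59.7, 61.2 and 57.4% in replicates 1 to 4 of Tmem232-/- and 63.5, 63.3, 58.3 and 63.4% in those of Tmem232+/+. Replicate 3 of Tmem232+/+ lay within the range of Tmem232-/-, and the other 3 lay above it. The difference was -3.28 percentage points (exact permutation p = 0.0857), -3.23 with Gk5 in the sum (exact permutation p = 0.0857), and -4.54 without that library (exact permutation p = 0.0571). Over the 5 shares tested, the lowest p adjusted by Benjamini-Hochberg was 0.214, from the exact permutation tests of Gk2 and Gykl1.

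**Figure D4:**
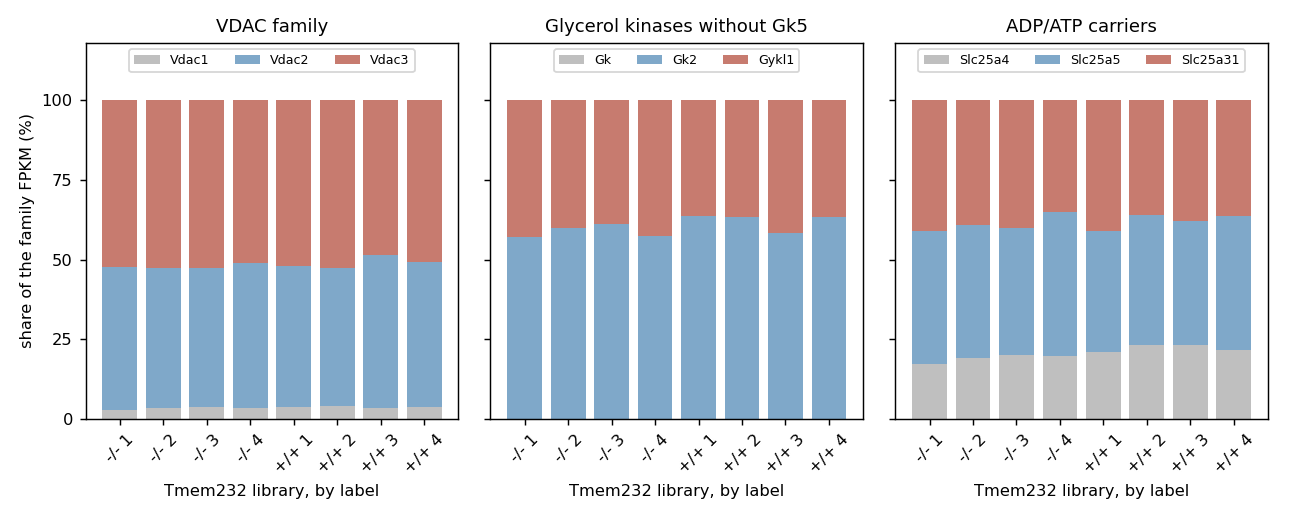
Share of the summed FPKM (vertical axis, in percent) held by each of the 3 genes summed for the VDAC, glycerol kinase (without Gk5) and ADP/ATP carrier families in each library (horizontal axis). The share of Gk2 is 57.1 to 61.2% in the libraries labelled Tmem232-/- and 58.3 to 63.5% in the others, and that of Slc25a4 is 17.3 to 20.004% against 21.1 to 23.2%.

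Of the sheath genes' paralogs, 5 that somatic cells use were measured, and 1 of them fell, beside 1.46% of tested genes. Slc25a4, the ADP/ATP carrier of heart and muscle, fell, at 28.3 ± 3.50 CPM (SD, n = 4) under Tmem232-/- and 36.7 ± 2.97 CPM under Tmem232+/+ (log2 fold change -0.37, adjusted p = 0.0302 by edgeR). The 2 sets of values overlapped, and this call was lost in 9 of 17 alternatives, among them those without any one library other than replicate 4 of Tmem232-/-, with an adjusted p of up to 0.101 by edgeR. Slc25a5, a carrier of many tissues, had a log2 fold change of -0.06, Vdac1 of -0.16, Gk of -0.24 and Gk5 of -0.13, and none of these passed the test. The median of the 5 was -0.16, beside -0.05 for all tested genes.

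Of 14 other genes of the sheath and the midpiece, 5 rose and none fell, with a median log2 fold change of 0.12, beside 10.3% of tested genes that rose and 1.46% that fell. The largest changes that passed were those of Tppp2, a tubulin polymerization-promoting protein (14.98 ± 3.87 against 2.31 ± 1.55 CPM, log2 fold change 2.70), Spata18, which acts in the clearing of mitochondrial proteins (86.7 ± 10.4 against 28.1 ± 2.64 CPM, 1.62), and Sept4, a septin of the ring at the end of the midpiece (60.8 ± 4.71 against 22.3 ± 3.12 CPM, 1.45). The adjusted p by edgeR was 0.000278, 1.62e-05 and 2.06e-05 for these. Without replicate 3 of Tmem232+/+, the highest of its label for Tppp2, the log2 fold change of that gene was 3.29. Of 15 genes of mitochondrial fusion and fission 3 rose and none fell, with a median of 0.03, and the same 10.3% and 1.46% of tested genes apply. They were Gdap1 at 0.88, Slc25a46 at 0.41 and Mtfr1 at 0.39 on the log2 scale, with adjusted p by edgeR of 0.0143, 0.0089 and 0.000981. The call of Gdap1 was lost with the replicate number as a block (adjusted p = 0.0554 by edgeR). Of 20 genes of outer membrane import and the cristae 1 rose, Apoo, a subunit of the complex at crista junctions, with a log2 fold change of 0.39 (adjusted p = 0.0188 by edgeR), and none fell, with a median of -0.04, so that the count that rose was below the 10.3% of tested genes. The call of Apoo was lost in 5 of 17 alternatives, which were the replicate block and those without replicate 1 or 3 of Tmem232-/- or replicate 2 or 4 of Tmem232+/+.

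For each sheath gene, the tested gene with the most similar profile over the 8 libraries was found by the root mean square difference of log2 CPM, each gene centred on its own mean, over 15054 genes. It was Cep295nl for Armc12 (0.0400), Hdac11 for Spata19 (0.0470), BC048671 for Tbc1d21 (0.0656) and Tmco2 for Smcp (0.0688). For Gk2 it was Fhl4 (0.0297), for Gykl1 Ddhd1 (0.0476), for Vdac2 Morn4 (0.0207), for Vdac3 Capzb (0.0182) and for Slc25a31 Dnajc8 (0.0203). Between sheath genes the same measure was smallest for Slc25a31 and Vdac3 (0.0774), Vdac2 and Vdac3 (0.0788) and Tbc1d21 and Smcp (0.0927), and largest for Spata19 and Slc25a31 (0.873). No profile of a sheath gene was hence closest to that of another sheath gene.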

How the data were processed

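Testis RNA of 8 mice was sequenced, and libraries were grouped by the labels that give genotype and replicate number. The authors filtered reads, mapped them to GRCm38.p6 with HISAT and Bowtie2 and quantified genes with StringTie and featureCounts (versions are not given in the sources used here). The deposited estimated counts are not normalized, and 10.7% to 11.2% of genes per library have fractional values. The deposited FPKM divide counts by transcript length and by the library total, as checked on 851 genes with 1 transcript. Columns of the authors' group means, fold changes and tests were not used.

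Counts were rounded and compared in R 4.3.3 with edgeR 4.0.16 (default filter on low counts, TMM, quasi-likelihood test without covariates, Benjamini-Hochberg over 15787 genes). With 1 library per mouse, p-values measure the spread between mice. The SE is the absolute log2 fold change divided by the square root of the F statistic of the edgeR test. Intervals are at 95%, from this SE and a t quantile, and are not output of edgeR itself. Family shares were compared by a two-sided exact permutation test over the 70 arrangements of the 8 libraries (Python 3.11.15, scipy 1.17.1, pandas 2.3.3, numpy 2.4.6). Positions and transcripts are from GENCODE M21, and the transcript with the longest coding sequence was used. The counting of strand is not given in the sources used here. Only the fits of edgeR, DESeq2 and limma-voom were tested on simulated data. As many genes were raised as lowered there, whereas 1633 rose and 230 fell in these data. The sheath genes and all lists were chosen with earlier results of these data known. Named genes were the 9 sheath genes, Tmem232, all somatic paralogs and the gene most like each sheath gene. In each other pathway list, up to 3 called genes with the largest change were named. Prm1, Tnp1 and Akap4 were named as examples of the markers of elongating spermatids, and Vdac3-ps1 as the gene sharing most words with Vdac3. Alternatives were DESeq2 1.42.0, limma-voom (limma 3.58.1), other scalings and filters on low counts, limma on log2(FPKM + 1), leaving out single libraries, and the replicate number as a block.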

Additional observations from a re-analysis of the deposited data

Results flagged for a closer look

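The share of Gk2 in the glycerol kinase family was 58.3% in replicate 3 labelled Tmem232+/+, far from the 63.3 to 63.5% of the other 3 libraries with that label. The share of Gykl1 was 41.6% in the same library, and 36.3 to 36.6% in the others. Both values describe 1 library, because the shares of Gk2 and Gykl1 add up to nearly the whole sum of Gk, Gk2 and Gykl1. Over the 28 groups of 4 libraries examined for such a value, 1.4 would be found by chance at this threshold.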

How the results depend on the processing

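The number of sheath genes that rose stayed at 5 and the number that fell at 0 in all 17 alternatives, the replicate block included. Few of all tested genes fell in any alternative, so the 0 is no result about the sheath genes. Armc12, Spata19, Tbc1d21, Smcp and Gykl1 passed the test in each alternative. Their log2 fold changes ranged over 1.07 to 1.41, 1.399 to 1.74, 1.25 to 1.64, 1.23 to 1.70 and 0.31 to 0.44, with the highest adjusted p at 0.0477, for Gykl1. For the first 4 of these genes, the lowest values were without replicate 2 and the highest without replicate 3 of Tmem232+/+. Gk2, Vdac2, Vdac3 and Slc25a31 passed in none. Vdac2 changed sign without replicate 3 of Tmem232+/+ (-0.105 to 0.0581 over the libraries left out). Vdac3 changed sign with library size alone (-0.018), with limma on log2(FPKM + 1) (-0.019) and with libraries left out (-0.022 to 0.071), and the cause was not tested.

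Same-numbered libraries did not deviate together (correlations of -0.23 to -0.05 across genes), so the numbers were not used as pairs. With the replicate block, 1317 genes rose and 28 fell, beside 1633 and 230. Without single libraries, 1356 to 1865 genes rose and 37 to 356 fell, with the number that fell moved by over 1.5 times except without replicate 3 of Tmem232+/+. With the size factors of DESeq2 131 fell, with library size alone 415, without a filter on low counts 71, and by limma on log2(FPKM + 1) 466. The difference in the log2 ratio of Spata19 to Armc12 was 0.324 with the libraries paired by number, where 4 pairs allow no exact permutation p under 0.125. Without each library in turn it was 0.306 to 0.337. No family share passed the test in any alternative. For the replicate block this outcome was fixed, since 4 pairs allow no exact permutation p under 0.125. Without pairing, fully separated groups of 4 give an exact permutation p of 0.0286 before adjustment over the shares tested, which left little room to pass. Differences in Gk2, Vdac2, Vdac3 and Slc25a31 smaller than their intervals were not detectable with 4 libraries per genotype.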
